A study of Mus musculus with 50 samples.

Results

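The genes described here encode the plasma proteins of complement and blood clotting, taken as a list of 41 symbols that was matched to the expression table through the gene annotation. All 41 were present among the 12185 genes of the table, and all 41 had a mean of at least 1, the level from which 11436 genes were tested. They were divided by role into 10 groups of 2 to 7 genes.

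Livers came from N2 mice. To breed them, C57BL/6J strains that carry chromosome 4 or chromosome 6 of the A/J strain were each crossed to C57BL/6J, and the offspring of one cross were mated with those of the other. In these mice chromosomes 4 and 6 can carry A/J and C57BL/6J alleles, and the rest of the genome is C57BL/6J. Liver messenger RNA was sequenced in 50 libraries to map loci that affect gene expression. Every mouse is labelled male, and no treatment separates them. The paper studied mice of both sexes in this cross and ran its scans with and without sex as a covariate. Its text does not give the sex of the mice that were sequenced, and whether the label holds was not tested. The deposited labels call the animals adult F2 mice, whereas the paper describes young N2 offspring. The caudate lobe was taken at an age of 5 weeks after an overnight fast. The paper gives the genotypes in a supplementary table that was not among the files used here. Without genotypes, all 50 libraries form 1 group. The values are read counts scaled for sequencing depth by a normalization of the submitters, called normalized CPM in the text. They do not add up to the same sum in each library: the sum was lowest in library 24, at 886171, and highest in library 44, at 1120647.

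Between 11965594 and 29976557 reads were counted per library, with a median of 13620584. One read was worth 0.0317 to 0.0864 normalized CPM, and the floor of 3 reads lay between 0.0951 and 0.259. All values of the 41 genes were above this floor. Floors and shares of counting error cover the counting of reads only, because PCR copies of a molecule are not independent. The titles carry a library number and an animal number, and the animal numbers start again from low values at library 31. The 28 libraries numbered 1 to 30 are called set 1 and the 22 numbered 31 to 59 set 2; the labels do not say what the numbers stand for. Counted reads differed between the sets, with a median of 14432604 and a highest value of 29976557 in set 1 and 13284110.5 and 17851466 in set 2. Libraries 8 and 10 share an animal number, and so do libraries 22 and 55; the paper counts 1 mouse fewer than there are libraries, so how many mice the 50 libraries come from is not certain. Leaving these 4 libraries out moved the mean of each of the 41 genes by less than 1 SD, and of the slopes and differences called among the members 1 was lost, that of Proz described with the animal numbers.

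Complement is a cascade of plasma proteases and their targets: recognition molecules or spontaneous activation lead to cleavage of C3, and the terminal components then assemble into a pore in the target membrane. Clotting is a second cascade of proteases and cofactors, which ends when thrombin turns fibrinogen into fibrin, and plasmin later dissolves the clot. Hepatocytes make most of these proteins and secrete them into blood; factor VIII is the best known exception and comes mainly from endothelial cells. Several of the genes are part of the acute-phase response, and some complement genes of the mouse liver are known to differ between the sexes.

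Together the 41 genes held 3.27% ± 0.275 (SD, n = 50) of the summed values of a library, from 2.61% to 3.84%. The 3 fibrinogen genes alone made up 0.965% of the summed values and C3 and Cfb together 0.519%. Per kilobase of annotated exon, the highest mean levels were those of Fgg at 1311 normalized CPM per kilobase, Fga at 1185, C3 at 1009, Vtn at 961 and Fgb at 879. With coefficients of variation of 9.06% to 14.8%, neighbours in this order overlap in their spread. The lowest mean levels per kilobase were those of Cfb at 0.667, F8 at 1.49, C2 at 2.68, Masp1 at 11.7 and Pros1 at 16.5. The annotation limits some of these values. Cfb shares 79.5% and C2 42.8% of its exon bases with the readthrough gene Gm20547 on the same strand, and Klkb1 shares 43.2% with Gm45753. Neither of these partners is in the table, and how reads in the shared bases were counted was not tested. The levels per kilobase were taken over all exon bases, shared ones included, so the low places of Cfb and C2 carry this limit.

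The members' levels were compared between the mice by their coefficient of variation. Its median was 12.97% among the 41 genes and 16.5% among all genes tested. Against the 200 genes nearest to each in mean value, 18 of the 41 lay above the median coefficient of variation. The highest and the lowest library differed by less than 2-fold for 26 members. Counting error made up under 5% of the variance between libraries for 35 members. It was largest for Cfb, at 103% of the variance, followed by C2 at 24.1% and F8 at 13.9%, so the spread of Cfb between libraries was about as large as counting alone gives. The steadiest members were Serpinc1 (coefficient of variation 7.001%), F2 (7.73%), Masp2 (7.92%), Serpind1 (8.21%) and F13b (8.48%). The most variable were C6 (52.1%), C9 (31.4%), Hc (21.8%), C8a (21.5%) and Klkb1 (19.4%), 4 of them terminal complement genes.

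**Figure D1:**
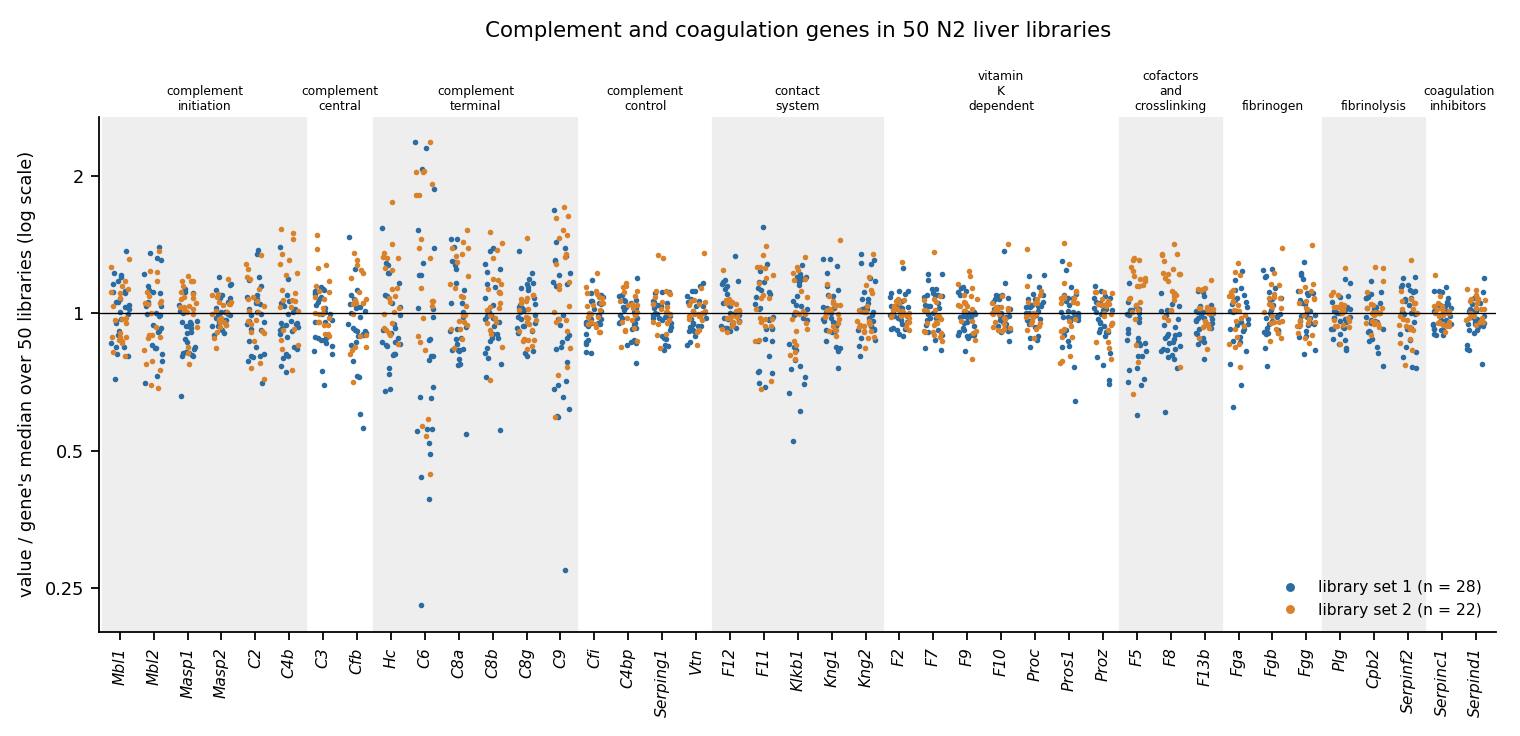
Each point is 1 library and shows the value of a gene divided by the gene's median over 50 libraries (y axis, log scale), with the 41 genes on the x axis grouped by role and coloured by library set. C6, which ran from 18.7 to 194.1 normalized CPM, and C9, from 113 to 708, spread most, whereas Serpinc1 stayed between 1434 and 1948.

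Complement starts from recognition proteins and the proteases bound to them. Mbl1 and Mbl2 encode the mannose-binding lectins, which bind sugars on microbes. Mbl1 ran from 89.8 through a median of 124.97 to 172 normalized CPM, and Mbl2 from 137 through 199 to 279. The proteases Masp1 and Masp2 cleave the next components once a lectin has bound. Masp1 had its lowest value at 77.6, its median at 118 and its highest at 143. Masp2 stayed within 152 and 217.4, with a median of 181. C4b encodes component C4, whose cleaved form attaches to surfaces, and C2 the protease that joins it. C4b ran from 677 through 911 to 1397, and C2 from 7.27 through 10.3 to 14.2. Of the 31-base stretches of C4b, 48.3% also occur in its neighbour C4a, which had a mean of 4.19, and reads from these stretches do not tell the genes apart.

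C3, the component on which all pathways of activation meet, had a mean of 5189 ± 767 normalized CPM (SD, n = 50). Its values ran from 3555 in library 4 through a median of 5116 to 7599 in library 45. Cfb, factor B of the alternative pathway, had a mean of 1.89 ± 0.353 and values from 1.07 to 2.799, which rest on 15 to 56 reads. Most of its exon bases are shared with Gm20547, as given above. The control proteins varied less than the members did at the median. Cfi, the protease that inactivates C3b and C4b, had a coefficient of variation of 8.91% and its cofactor C4bp 9.13%. Serping1, the C1 inhibitor, which also restrains plasma kallikrein, reached 10.3%. Vtn encodes vitronectin, which keeps terminal complexes out of membranes, and varied by 9.06%.

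The terminal components form the membrane attack complex. Hc encodes component C5, which starts the assembly when it is cleaved. C6 binds C5b, C8, made of 3 subunits (C8a, C8b and C8g), joins them at the membrane, and C9 forms the ring of the pore. C7 was not among the members. C6 had the widest range of all members, from 18.7 through a median of 81.6 to 194.1 normalized CPM. Library 24 was lowest and library 11 highest, and the 10.4-fold range became 6.09-fold without library 24, with 31.9 as the lowest value. For C9 the values ran from 113 through 413 to 708, again with library 24 lowest; without it the lowest was 244.2 and the range 2.90-fold. Values of Hc lay between 339 and 880 with a median of 500.3. C8a had its lowest value at 186.3, its median at 342 and its highest at 523, and without library 24 its lowest was 264. C8b ran from 141 through 253.9 to 383 and without library 24 began at 181. C8g, a lipocalin and the one subunit unrelated in sequence to the others, was the steadiest terminal gene, with values from 165 through 204 to 299. In each of these 6 genes the values of set 1 and set 2 overlapped.

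Since C6, C9, C8a, C8b and Hc varied together across the libraries, their promoters are printed here. They span 250 bases before to 50 bases after the RefSeq start of the gene in GRCm38.p6, and such a window was found for 32 of the 41 members; Masp1, C2, C4b, Cfb, Cfi, Serping1, Kng1, Proc and Plg had none. C6 starts in chr15:4726960-4727259 on the plus strand, C9 in chr15:6445096-6445395 on the plus strand, C8a in chr4:104876349-104876648 on the minus strand, C8b in chr4:104766067-104766366 on the plus strand and Hc in chr2:35061363-35061662 on the minus strand. Capitals mark matches, on either strand, to 4 motifs of factors known from liver genes: GTTAAT, a core of the site of HNF1; TTCNNNGAA, the palindrome bound by STAT proteins; CTGGGA, an interleukin-6 response element; and TTNNGCAA, the pattern of C/EBP proteins. In the 8 promoters printed in the text 17 matches were found, and 0 of them overlapped.
C6: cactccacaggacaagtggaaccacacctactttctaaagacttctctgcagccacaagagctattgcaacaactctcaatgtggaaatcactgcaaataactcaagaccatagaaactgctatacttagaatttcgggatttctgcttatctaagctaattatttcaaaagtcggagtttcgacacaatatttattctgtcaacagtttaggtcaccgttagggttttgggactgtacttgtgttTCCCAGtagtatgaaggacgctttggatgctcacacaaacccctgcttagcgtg
C9: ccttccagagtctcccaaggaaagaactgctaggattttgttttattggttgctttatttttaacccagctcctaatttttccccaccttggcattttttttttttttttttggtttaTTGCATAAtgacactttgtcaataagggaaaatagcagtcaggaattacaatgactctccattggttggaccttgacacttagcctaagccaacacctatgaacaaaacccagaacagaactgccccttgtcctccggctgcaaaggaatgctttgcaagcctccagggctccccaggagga
C8a: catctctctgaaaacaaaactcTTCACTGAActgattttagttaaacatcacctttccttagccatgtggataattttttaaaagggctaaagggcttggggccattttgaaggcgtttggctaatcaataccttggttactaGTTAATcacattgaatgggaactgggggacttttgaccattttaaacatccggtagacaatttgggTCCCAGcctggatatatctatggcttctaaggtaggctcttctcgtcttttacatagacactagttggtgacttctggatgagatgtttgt
C8b: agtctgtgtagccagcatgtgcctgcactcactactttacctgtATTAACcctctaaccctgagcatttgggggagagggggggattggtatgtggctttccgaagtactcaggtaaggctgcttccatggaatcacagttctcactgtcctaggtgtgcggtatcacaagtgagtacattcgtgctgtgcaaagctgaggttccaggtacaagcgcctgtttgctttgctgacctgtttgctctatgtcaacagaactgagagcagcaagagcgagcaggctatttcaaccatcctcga
Hc: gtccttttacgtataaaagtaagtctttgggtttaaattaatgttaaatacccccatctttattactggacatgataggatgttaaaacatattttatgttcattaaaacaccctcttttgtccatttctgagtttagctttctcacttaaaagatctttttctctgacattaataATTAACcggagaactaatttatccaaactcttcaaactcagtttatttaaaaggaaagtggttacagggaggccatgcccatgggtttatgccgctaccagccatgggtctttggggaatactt

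GTTAAT occurred in 3 of these 5 promoters, beginning 107 bases before the start of C8a, 206 bases before that of C8b and 74 bases before that of Hc. C8a also held TTCNNNGAA 228 bases and CTGGGA 41 bases before its start. C6 held a CTGGGA that begins 4 bases before its start, and C9 a TTNNGCAA that begins 132 bases before. Among all 32851 promoters of the same length, 7.10% held GTTAAT, 8.30% TTCNNNGAA, 31.8% CTGGGA and 10.8% TTNNGCAA. Among the 32 members with a promoter, the counts were 10, 7, 17 and 10. A match describes the letters only, not a bound site.

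Clotting members of the contact system start the intrinsic pathway in a test tube. F12 (factor XII) stayed between 408 and 600 normalized CPM. F11 (factor XI) and Klkb1 (plasma prekallikrein) are neighbours and paralogues on chromosome 8. F11 ran from 24.96 through 36.5 to 56.5, and Klkb1 from 60.4 in library 15 through 115 to 153. Kng1 and Kng2 encode kininogens, the source of bradykinin and cofactors of prekallikrein. Kng1 was the higher of them per kilobase of exon, at 520 normalized CPM per kilobase against 66.3. They share sequence: 26.5% of the 31-base stretches of Kng1 occur in Kng2 and 30.6% of those of Kng2 in Kng1.

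Genes of the vitamin K-dependent proteins included prothrombin (F2), factors VII, IX and X (F7, F9 and F10), protein C (Proc), its cofactor protein S (Pros1) and protein Z (Proz), which helps to inhibit factor Xa. F2 had the highest level of them per kilobase, at 311 normalized CPM, and Pros1 the lowest, at 16.5. Coefficients of variation ran from 7.73% for F2 to 14.3% for Pros1. F9 ran from 160 through 202 to 251 normalized CPM and F7 from 58.8 through 70.8 to 96.5. The cofactor genes F5 and F8 varied more, by 18.6% and 18.2%. F5 (factor V) ran from 246 through 412 to 545 and F8 from 8.80 through 14.5 to 20.6, while F13b, the carrier subunit of the factor that crosslinks fibrin, stayed within 123.2 and 184.

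Clot dissolution and its control were covered by Plg, the precursor of plasmin, by Serpinf2, the plasmin inhibitor, and by Cpb2, a carboxypeptidase that slows the lysis of clots. Plg ran from 1798 to 2727 normalized CPM, Serpinf2 from 547 to 945 and Cpb2 from 185 to 304. The thrombin inhibitors Serpinc1 (antithrombin) and Serpind1 (heparin cofactor II) were among the 5 steadiest members. Serpinc1 had the smallest range of all 41 genes, 1.36-fold, between library 4 and library 44.

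Fga, Fgb and Fgg encode the chains of fibrinogen and lie within 1 cluster on chromosome 3. Fga ran from 2241 through 3604 to 4645 normalized CPM, Fgb from 2515 through 3278 to 4563 and Fgg from 2185 through 2678 to 3792. For all 3 genes library 4 was lowest and library 44 highest. The same 2 libraries marked the ends for Cfi, Serping1, Kng1, Plg, Serpinf2 and Serpinc1, and library 44 also has the highest summed value of all libraries. The promoters of the 3 chains are printed because their levels rose and fell together, with Fga in chr3:83025903-83026202 on the plus strand, Fgb in chr3:83049814-83050113 on the minus strand and Fgg in chr3:83007474-83007773 on the plus strand, and capitals as before.
Fga: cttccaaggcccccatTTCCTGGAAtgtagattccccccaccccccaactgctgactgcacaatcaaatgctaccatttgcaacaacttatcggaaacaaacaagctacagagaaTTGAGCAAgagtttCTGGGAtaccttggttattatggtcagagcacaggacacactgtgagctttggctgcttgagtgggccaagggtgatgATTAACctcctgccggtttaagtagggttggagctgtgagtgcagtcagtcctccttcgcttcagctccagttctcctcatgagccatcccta
Fgb: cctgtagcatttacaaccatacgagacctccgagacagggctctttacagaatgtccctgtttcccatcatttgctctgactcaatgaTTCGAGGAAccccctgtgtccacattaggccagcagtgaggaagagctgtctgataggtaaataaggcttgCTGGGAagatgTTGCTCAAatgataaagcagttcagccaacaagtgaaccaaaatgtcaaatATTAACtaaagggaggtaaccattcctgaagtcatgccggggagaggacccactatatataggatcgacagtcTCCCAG
Fgg: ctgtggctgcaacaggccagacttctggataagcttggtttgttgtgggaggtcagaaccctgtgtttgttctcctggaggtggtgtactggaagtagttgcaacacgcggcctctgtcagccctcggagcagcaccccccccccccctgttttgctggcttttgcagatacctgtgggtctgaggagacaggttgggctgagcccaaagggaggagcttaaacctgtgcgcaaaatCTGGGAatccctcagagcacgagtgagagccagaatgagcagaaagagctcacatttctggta

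Fga and Fgb each held all 4 motifs. GTTAAT began 43 bases before the start of Fga and 29 bases before that of Fgb, and TTCNNNGAA 234 and 162 bases before. TTNNGCAA began 135 bases before the start of Fga and 80 bases before that of Fgb. CTGGGA lay between TTNNGCAA and GTTAAT in Fga, began 91 bases before and 44 bases after the start of Fgb and began 13 bases before that of Fgg, which held no other match.

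To see which members share their variation, 20 pairs were compared that are subunits of 1 protein, neighbours, paralogues or partners in 1 step. Most of them rose and fell together across the livers, with exceptions among chains, neighbours and partners alike: C8a and C8g, chains of 1 protein, the neighbours C2 and Cfb, and partners such as Proc and Pros1 did not pass by r. Pearson r of log2(value + 0.5) passed a permutation test with Benjamini-Hochberg adjustment over the 20 pairs in 13 of them, all positive. All 820 pairs of members had a median r of 0.230, and 610 were positive. How many of these would pass was not tested, so the count of 13 does not set the chosen pairs apart from other members. Fgb and Fgg were closest, with r = 0.942 (permutation p = 1e-05, the smallest that 100000 resamples can give; adjusted p = 2.22e-05) and rho = 0.926 (permutation p = 1e-05). It became 0.926 when the 2 libraries farthest from the median of Fgb were left out, and it was 0.942 in set 1 and 0.959 in set 2. Fga followed Fgb with r = 0.873 and rho = 0.894 and Fgg with r = 0.815 and rho = 0.841 (permutation p = 1e-05 each). These relations of Fga held within both sets, with r from 0.802 to 0.912.

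C6 and C9, 1630360 bases apart on chromosome 15, had r = 0.916 and rho = 0.913 (permutation p = 1e-05 each, adjusted p = 2.22e-05). Leaving out the 2 libraries farthest from the median of C6 gave 0.911, and within sets 1 and 2 it was 0.919 and 0.898. C8a and C8b, neighbours on chromosome 4, had r = 0.805 and rho = 0.771 (permutation p = 1e-05 each), with 0.770 and 0.838 within the sets and 0.741 without the 2 farthest libraries. C8g lies on chromosome 2 and followed C8b less closely, with r = 0.504 (permutation p = 0.00022, adjusted p = 0.0004) and rho = 0.542 (permutation p = 9e-05). Within the sets r was 0.606 and 0.497, and without the 2 farthest libraries 0.455. With C8a the r of C8g was 0.252 (permutation p = 0.0764, adjusted p = 0.0955) and rho 0.304 (permutation p = 0.0330, adjusted p = 0.0471), so r did not pass and rho did. With library set removed by regression this r was 0.309 and passed (adjusted p = 0.0377, in a range from 0.0377 to 0.354 over the alternatives tried).

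On the clotting side, prothrombin and its inhibitor antithrombin followed each other from different chromosomes. F2 and Serpinc1 had r = 0.880 and rho = 0.856 (permutation p = 1e-05 each), with 0.874 and 0.8901 within the sets and 0.842 without the 2 farthest libraries. The kininogens Kng1 and Kng2 had r = 0.858 and rho = 0.741 (permutation p = 1e-05 each), 0.923 and 0.787 within the sets and 0.826 without the 2 farthest. The part of their shared sequence in this relation was not tested. F5 and F8, the paired cofactors, had r = 0.702 and rho = 0.711 (permutation p = 1e-05 each), and within the sets, between which both differed, r was 0.562 and 0.506; without the 2 farthest libraries it was 0.665. The neighbours F11 and Klkb1 had r = 0.612 and rho = 0.674 (permutation p = 1e-05 each), with 0.654 and 0.524 within the sets and 0.596 without the 2 farthest.

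Plasminogen and the plasmin inhibitor also varied together. Plg and Serpinf2 had r = 0.586 (permutation p = 3e-05, adjusted p = 6e-05) and rho = 0.539 (permutation p = 8e-05), 0.687 and 0.489 within the sets and 0.474 without the 2 farthest libraries. The neighbours F7 and F10 had r = 0.499 (permutation p = 0.00028, adjusted p = 0.000467) and rho = 0.373 (permutation p = 0.00823), with 0.371 in set 1, where the adjusted p was 0.0783 in a range from 0.000164 to 0.0783 over the alternatives tried, 0.677 in set 2 and 0.359 without the 2 farthest. For the lectins Mbl1 and Mbl2 r was 0.491 (permutation p = 0.00033, adjusted p = 0.000508) and rho 0.509 (permutation p = 0.00019). It was 0.527 in set 1, 0.440 in set 2, where the adjusted p was 0.0576 in a range from 0.000433 to 0.0576 over the alternatives tried, and 0.472 without the 2 farthest libraries.

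The other 6 pairs did not pass by r. C2 and Cfb, 86 bases apart on chromosome 17, had r = -0.122 and rho = -0.167 (permutation p = 0.398 and 0.245), at counting errors of 24.1% and 103% of their variance. Both genes share exon bases with Gm20547, and the part of this overlap in their relation was not tested. C3 and Cfb had r = 0.225 and rho = 0.172 (permutation p = 0.114 and 0.230). Masp1 and Masp2 had r = 0.265 and rho = 0.270 (permutation p = 0.0639 and 0.0586). Their r passed in 3 alternatives, at 0.349 with library set removed by regression (adjusted p = 0.0191, in a range from 0.0191 to 0.243 over the alternatives), at 0.301 with counted reads removed (adjusted p = 0.0481) and at 0.321 without the libraries that share an animal number (adjusted p = 0.0433). F12 and its activator Klkb1 had r = 0.0267 and rho = 0.0434 (permutation p = 0.854 and 0.764). Within the sets r was -0.0737 in set 1 and 0.424 in set 2 (permutation p = 0.0459, adjusted p = 0.0576, in set 2). Protein C and its cofactor, Proc and Pros1, had r = -0.207 and rho = -0.242 (permutation p = 0.149 and 0.0910). F8 and F9, both on the X chromosome, had r = 0.263 (permutation p = 0.0647, adjusted p = 0.0863) and rho = 0.292 (permutation p = 0.0389, adjusted p = 0.0519).

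Over all 820 pairs of members the median r was 0.230, and 610 pairs were positive. Some blocks of genes, chosen after their values were seen and given without a test, stood out from this median. Among Hc, C6, C8a, C8b and C9 the 10 pairs had r from 0.757 to 0.916, whereas C8g had r from 0.179 to 0.504 with them. Klkb1 had r from 0.619 to 0.719 with the same 5 genes. The fibrinogen chains had r from 0.580 to 0.773 with the kininogens. Between the 5 terminal genes and Kng1, Kng2 and Serpinf2 all 15 values were negative, from -0.601 for C6 and Serpinf2 to -0.228 for C8b and Kng1.

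**Figure D2:**
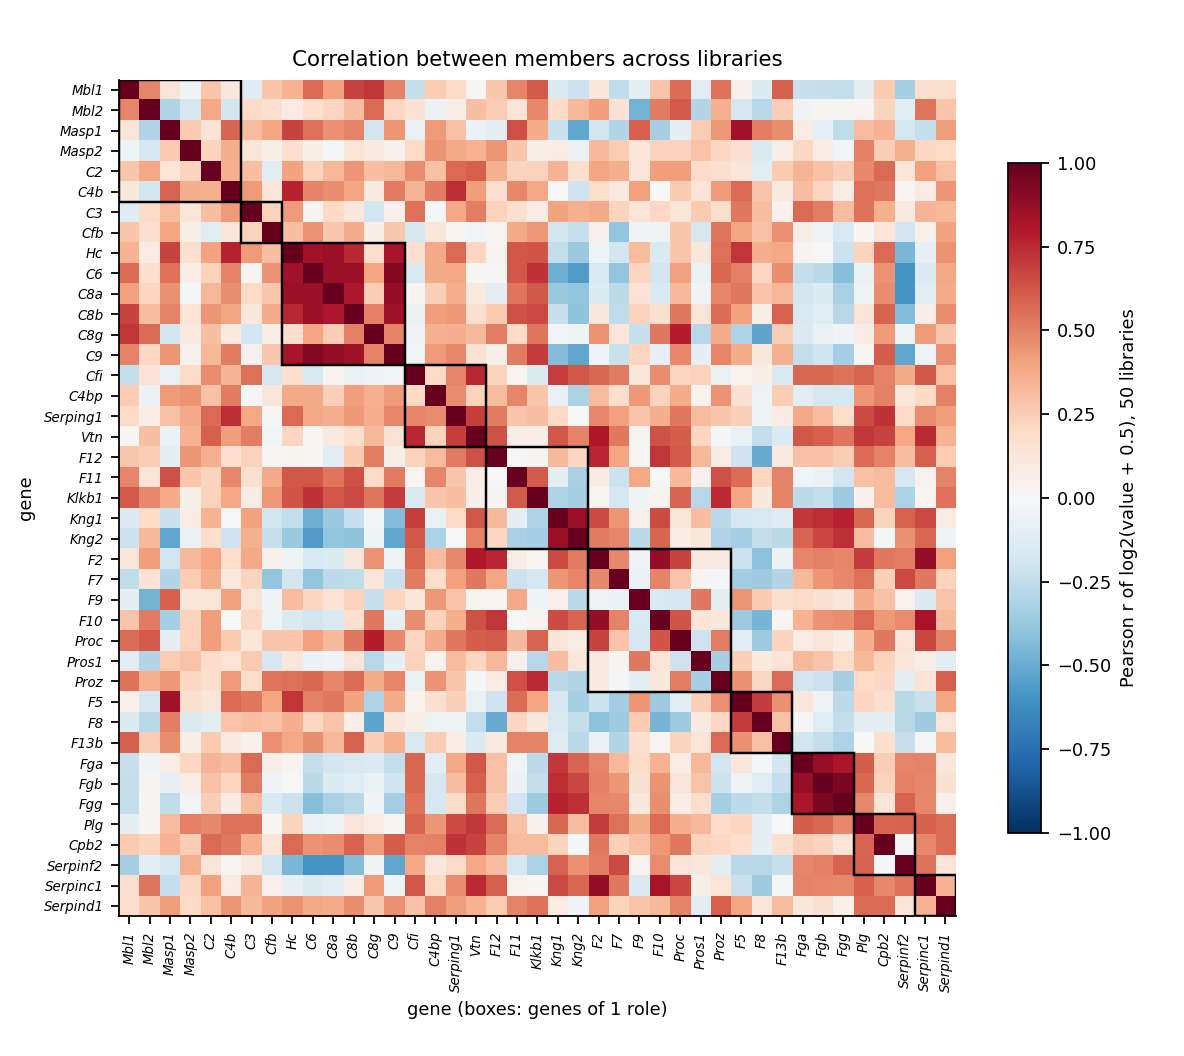
Both axes list the 41 genes, boxed by role, and colour gives Pearson r of log2(value + 0.5) over 50 libraries. The terminal complement box without C8g (r from 0.757 to 0.916) and the fibrinogen box (0.815 to 0.942) hold high values throughout.

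Because several complement genes are known to be higher in male mouse liver and the mice were young, the members were set against an index of male-type liver genes. For each library the log2 values of its genes were standardized and averaged, over Cyp2d9, Cyp7b1, Hsd3b5, Elovl3, Selenbp2, Ugt2b38 and Gstp1. These are 7 of 8 genes listed, and their pairs had a median r of 0.786. It ran from -3.03 SD in library 24 to 1.61 SD. Members rose with it more often than they fell: 20 of 41 rose, 48.8% against 13.6% of all genes tested, and 5 fell, 12.2% against 12.9%, the latter a share near that of all genes (limma with Benjamini-Hochberg adjustment). The median slope of the members was 0.05 on the log2 scale per SD of the index, and that of all genes 0.0008. Of 9 hepatocyte markers 44.4% rose and 11.1% fell, shares near those of the members, with a median slope of 0.02. The excess over all genes is thus not particular to the members. In bulk liver, fewer cells of a type and less RNA per cell cannot be told apart.

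All 6 terminal complement genes rose with the male-type index. C6 rose most, by 0.73 on the log2 scale per SD (SE 0.039, adjusted p = 5.24e-21 by limma with Benjamini-Hochberg adjustment), a 1.66-fold change. C9 rose by 0.46 (SE 0.033, adjusted p = 2.14e-16), C8b by 0.25 (SE 0.021, adjusted p = 4.85e-14), C8a by 0.24 (SE 0.030, adjusted p = 1.08e-08) and Hc by 0.22 (SE 0.030, adjusted p = 1.37e-07). C8g rose by 0.09 (SE 0.023, adjusted p = 0.00167). Libraries with a low index had low values of these genes: library 24, with the lowest index, was lowest for C6, C8a, C8b and C9. The relation did not rest on it, since the slope of all 6 genes kept its call without library 24. Within set 2 the slope of C8g was as large, at 0.09, but did not pass (adjusted p = 0.298, in a range from 0.000351 to 0.298 over the alternatives). These values come with the promoters printed above, of which C8a, C8b and Hc held GTTAAT and C6 and C9 did not.

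As correlations, the relation was tight for 5 of them and looser for C8g. C6 had r = 0.934 and rho = 0.926 with the male-type index (permutation p = 1e-05 each), 0.935 and 0.922 within sets 1 and 2, and 0.923 after removal of the 2 libraries farthest from the index median. For C9 r was 0.894 and rho 0.882 (permutation p = 1e-05 each), with 0.874 and 0.919 within the sets and 0.862 without the 2 farthest. C8b had r = 0.874 and rho = 0.870 (permutation p = 1e-05 each), with 0.845 and 0.901 within the sets and 0.846 without the 2 farthest. C8a had r = 0.758 and rho = 0.728, and Hc r = 0.724 and rho = 0.738 (permutation p = 1e-05 each). Within the sets these were 0.697 and 0.825 for C8a and 0.676 and 0.742 for Hc, and without the 2 farthest libraries 0.739 and 0.691. C8g had r = 0.516 and rho = 0.558 (permutation p = 0.00015 and 3e-05), with 0.650 and 0.475 within the sets and 0.431 without the 2 farthest.

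**Figure D3:**
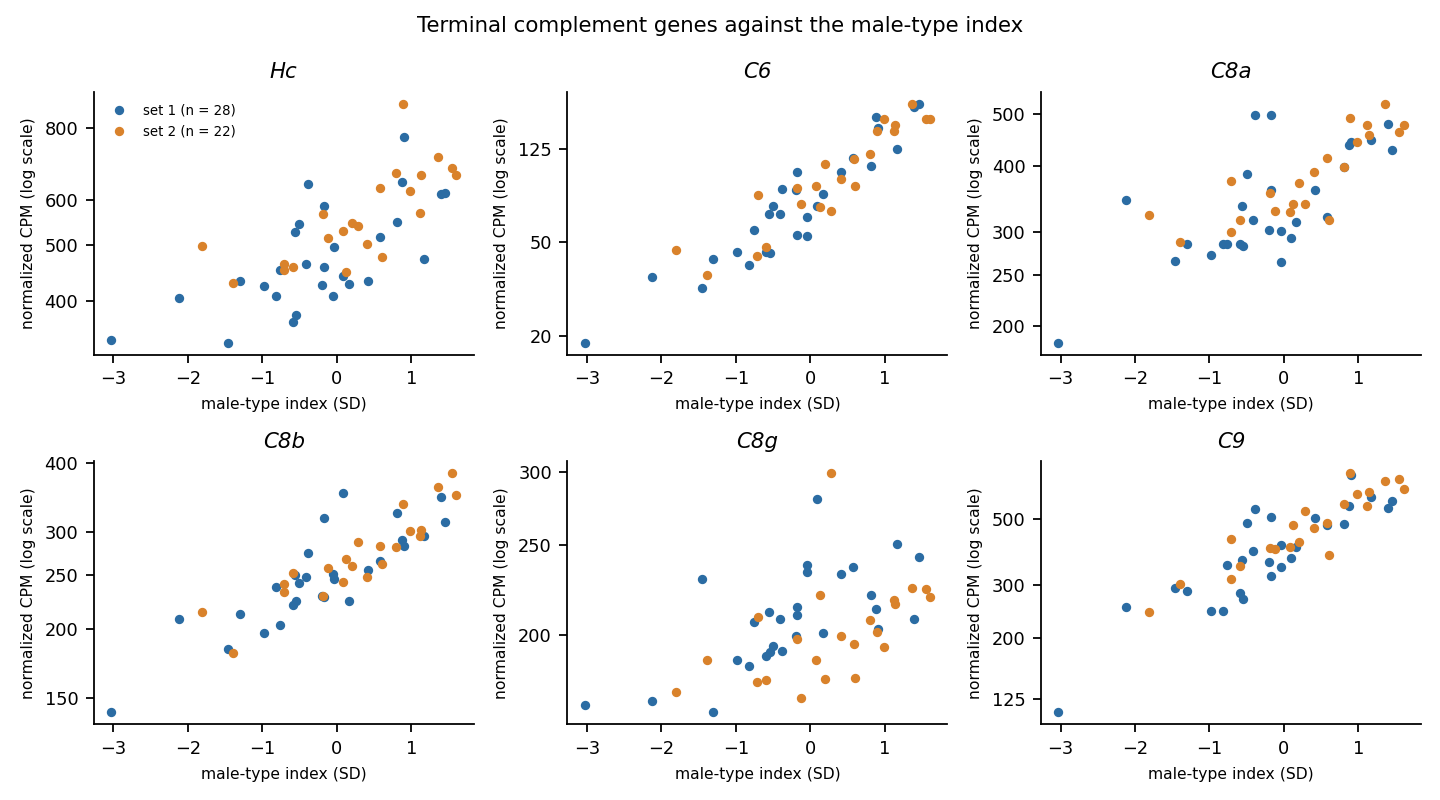
Each panel shows 1 gene in 50 libraries, with the male-type index in SD on the x axis and normalized CPM on a log y axis, coloured by library set. C6 (r = 0.934) and C9 (r = 0.894) follow the index most closely, and library 24 lies at the far left at -3.03 SD.

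Outside the terminal complex the slopes were smaller than those of the terminal genes other than C8g. Klkb1 rose by 0.21 per SD (SE 0.030, adjusted p = 4.71e-07), F11 by 0.16 (SE 0.033, adjusted p = 0.000265) and Mbl1 by 0.14 (SE 0.023, adjusted p = 7.72e-06). The others that rose were Masp1, C4b, Cfb, C4bp, Serping1, Proc, Proz, F5, F13b, Cpb2 and Serpind1, with slopes from 0.05 to 0.12. Among these the slope of Cfb (0.09, SE 0.028, adjusted p = 0.0108) rests on 15 to 56 reads per library, and its spread was about that of counting. Without library 24 the slopes of Serpind1 (adjusted p = 0.150, in a range from 0.0272 to 0.736 over the alternatives), Serping1 (adjusted p = 0.0927, range 0.000498 to 0.513) and C4bp (adjusted p = 0.1096, range 0.00528 to 0.449) no longer passed, at 0.04, 0.05 and 0.04 in place of 0.05, 0.06 and 0.06. With library set as a covariate 17 members rose in place of 20 and 7 fell in place of 5: F5 (slope 0.07 in place of 0.11, adjusted p = 0.0883, range 0.0172 to 0.637), Serping1 (0.05, adjusted p = 0.0634) and Serpind1 (0.04, adjusted p = 0.119) did not pass. Serpind1 also did not pass after centring on the median (adjusted p = 0.0677) or by edgeR (adjusted p = 0.0587). The 5 members that fell were Kng2 by 0.12 (SE 0.021, adjusted p = 3.57e-05), Serpinf2 by 0.10 (SE 0.022, adjusted p = 0.000651), Kng1 by 0.09 (SE 0.023, adjusted p = 0.00303), Fgg by 0.08 (SE 0.022, adjusted p = 0.00603) and F7 by 0.06 (SE 0.020, adjusted p = 0.0159). Within set 1 alone 12 members rose and 6 fell. Within set 2, with 22 libraries, 5 rose and 0 fell by limma, with 13 at an unadjusted p under 0.05 in either direction.

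Markers of some other cell types also moved with the male-type index. Of 8 stellate cell markers 6 fell with it and 0 rose, and their summed value, led by Dcn, ran from 115 to 278 normalized CPM. Of 12 markers of sinusoidal endothelium 5 fell and 1 rose, with Clec4g the highest and a summed value of 331 to 476. Of 6 blood cell genes, led by Hbb-bs, 4 fell and 1 rose, and their sum ran from 96.7 to 304; Pf4 and Ppbp were absent from the table. Of 9 hepatocyte markers 4 rose and 1 fell, but their summed value, led by Alb, ran from 87901 to 134380 and was lower where the index was higher. Of 11 Kupffer markers 0 rose and 1 fell, of 4 leukocyte markers 0 rose and 1 fell, and of 4 cholangiocyte markers 0 rose and 0 fell. As descriptions, r of the summed value with the index was -0.643 for stellate, -0.386 for endothelial, -0.422 for blood cell and -0.521 for hepatocyte markers. It was -0.149 for Kupffer, 0.121 for leukocyte and 0.236 for cholangiocyte markers. Their part in the result was not tested. As a description, r of the index with counted reads was -0.0318.

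Acute-phase genes served as a second index, since fibrinogen and several complement genes are known targets of that response. It was built in the same way from 15 genes and contains no member. The genes were Saa1, Saa2, Saa3, Hp, Hpx, Lcn2, Lbp, Itih3, Itih4, Apcs, Serpina3n, Lrg1, Fgl1, Cd14 and Steap4. Their pairs had a median r of 0.349 and a lowest r of -0.249, so some of them ran against each other. Of the 15 genes 12 rose with the index that they form, by limma. The index ran from -1.92 SD in library 4 to 3.28 SD in library 44. Members rose with it in 9 of 41 cases, 21.95% against 0.700% of all genes tested, and 0 fell, against 0.236% of all genes (limma with Benjamini-Hochberg adjustment; 20 members had an unadjusted p under 0.05, and edgeR and DESeq2 also called 0 lower). The median slope was 0.04 per SD for the members and 0.0002 for all genes.

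The 3 fibrinogen chains led this list by adjusted p, while the slope of C4b, at 0.13, was larger than those of Fgb and Fgg. Fgb rose by 0.12 on the log2 scale per SD of the acute-phase index (SE 0.018, adjusted p = 5.06e-05), Fgg by 0.11 (SE 0.018, adjusted p = 9.95e-05) and Fga by 0.14 (SE 0.023, adjusted p = 0.000186), each by limma with Benjamini-Hochberg adjustment. Vtn rose by 0.08 (SE 0.015, adjusted p = 0.000691) and Cfi by 0.08 (SE 0.016, adjusted p = 0.00146). Plg, Kng1, Serping1 and C4b also rose, by 0.08 to 0.13. C3 had a slope of 0.08 with an adjusted p of 0.113 and did not pass. No terminal complement gene passed, and their median slope was -0.01.

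Library 44, at the top of the index, was highest for all 3 chains, and library 4, at the bottom, was lowest. Library 44 has the highest summed value of all libraries too, and after centring each library on its median all 9 members still rose, Fgb by 0.12, Fgg by 0.12 and Fga by 0.14. Without library 44, an alternative chosen after seeing the data, 8 members rose, 7 of the 9 and Pros1; Serping1 (adjusted p = 0.1, in a range from 0.000262 to 0.596 over the alternatives) and C4b (adjusted p = 0.0772, range 7.06e-05 to 0.441) no longer passed, with slopes of 0.064 in place of 0.079 and 0.122 in place of 0.134. Within set 1 only Cfi passed, and within set 2 0 members did by limma, with 17 and 16 members at an unadjusted p under 0.05. The correlations kept their sign in both sets. Fgb had r = 0.706 and rho = 0.651 with the index (permutation p = 1e-05 and 2e-05), 0.638 and 0.787 within sets 1 and 2 and 0.609 without the 2 farthest libraries. Fgg had r = 0.688 and rho = 0.666 (permutation p = 1e-05 each), with 0.644 and 0.754 within the sets and 0.626 without the 2 farthest. Fga had r = 0.659 and rho = 0.659 (permutation p = 1e-05 each), with 0.593 and 0.753 within the sets and 0.605 without the 2 farthest.

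**Figure D4:**
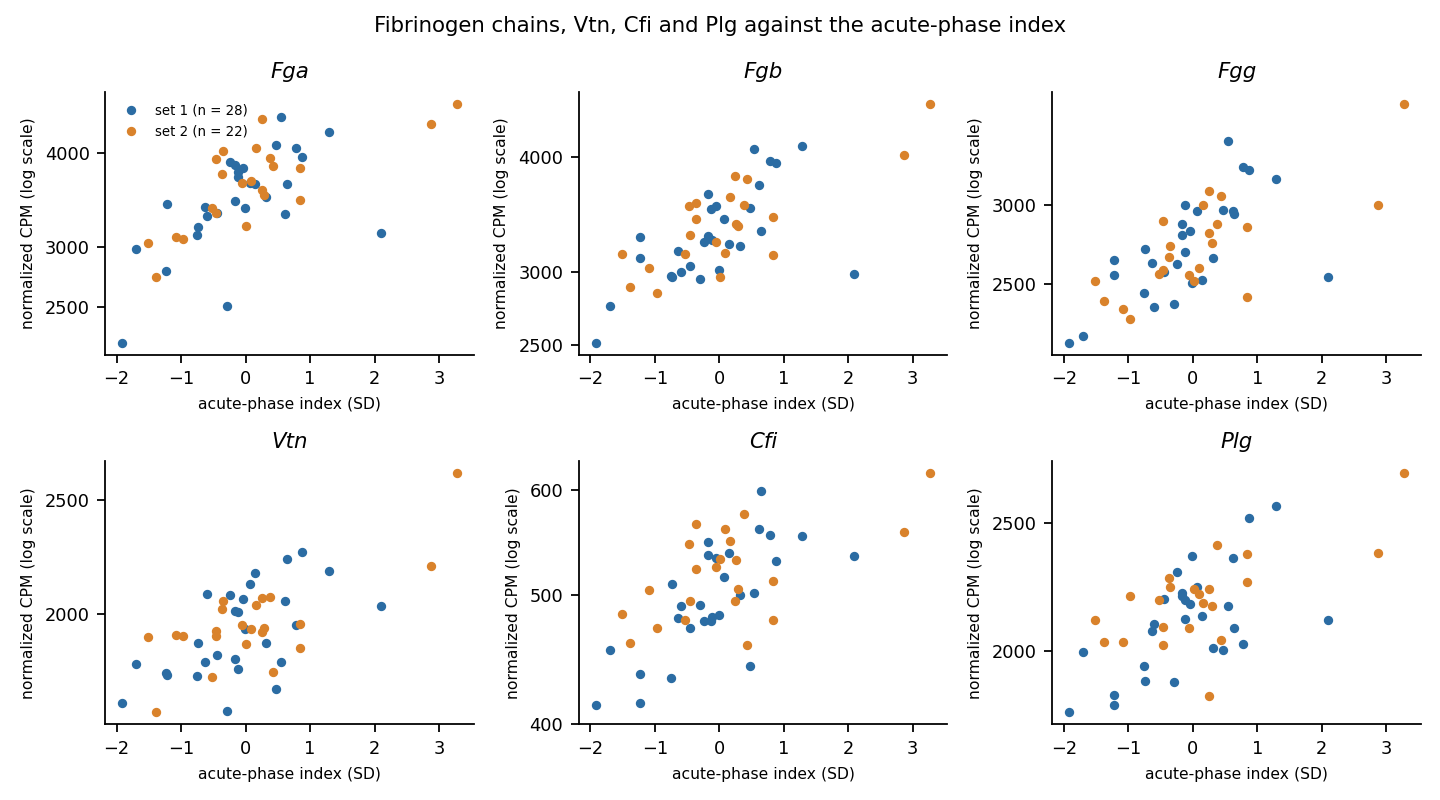
Each panel shows 1 gene in 50 libraries, with the acute-phase index in SD on the x axis and normalized CPM on a log y axis, coloured by library set. Library 44 at 3.28 SD is highest in all 6 panels, and for the fibrinogen chains library 4 at -1.92 SD is lowest.

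Kupffer cell markers were the only cell type list with genes that passed for this index. Of 11 markers 2 rose and 0 fell by limma, with 9 at an unadjusted p under 0.05, and their summed value ran from 350 to 632 normalized CPM with Cd5l highest. As descriptions, r of the summed value with the index was 0.494 for Kupffer, 0.327 for leukocyte, 0.267 for hepatocyte and 0.234 for blood cell markers. It was 0.200 for endothelial, 0.155 for stellate and 0.0183 for cholangiocyte markers. Their part in the result was not tested. The acute-phase and male-type indices had r = -0.179 with each other, given as a description.

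Library numbers gave the only split of the samples that the titles offer. Between set 1 and set 2, 5 members were higher in set 2, 12.2% against 7.07% of all genes tested, and 0 were lower, against 6.42% (limma with Benjamini-Hochberg adjustment; 9 members had an unadjusted p under 0.05, and edgeR and DESeq2 also called 0 lower). The sets overlapped for each of the 5 genes. F8 ran from 8.80 through a median of 12.9 to 16.1 normalized CPM in set 1 and from 11.05 through 17.2 to 20.6 in set 2, and 21 of 22 libraries of set 2 exceeded the median of set 1. It was 0.35 higher on the log2 scale (SE 0.053, adjusted p = 6.98e-05). F5 was 0.30 higher (SE 0.066, adjusted p = 0.00188), at 367 ± 54.3 (SD, n = 28) in set 1 and 453 ± 70.5 (SD, n = 22) in set 2, and 19 of 22 libraries exceeded the median of set 1.

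Masp1 was 0.17 higher in set 2 (SE 0.050, adjusted p = 0.0144, 19 of 22 libraries above the median of set 1), C4b 0.21 higher (SE 0.068, adjusted p = 0.0309, 16 of 22) and Hc 0.23 higher (SE 0.079, adjusted p = 0.0388, 19 of 22). Hc lost its call without library 24, where the difference was 0.22 (adjusted p = 0.0552, in a range from 0.0302 to 0.142 over the alternatives tried), and also with counted reads (0.25, adjusted p = 0.0607) or the animal number (0.19, adjusted p = 0.0747) as a covariate. With the male-type index as a covariate, chosen after seeing the data, F8 and F5 kept theirs and C3 passed, while Masp1 (adjusted p = 0.0501, range 0.00613 to 0.0501), C4b (adjusted p = 0.0981, range 0.0113 to 0.0981) and Hc (adjusted p = 0.142) did not, with differences of 0.13, 0.16 and 0.13. What the sets stand for is not given. They also differ in counted reads, as described above, and with counted reads as a covariate 7.77% of all genes in place of 13.5% differed between the sets, and 4 members in place of 5. The differences of the 5 members were about as large in that fit, at 0.33 for F8, 0.315 for F5, 0.18 for Masp1, 0.22 for C4b and 0.25 for Hc.

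**Figure D5:**
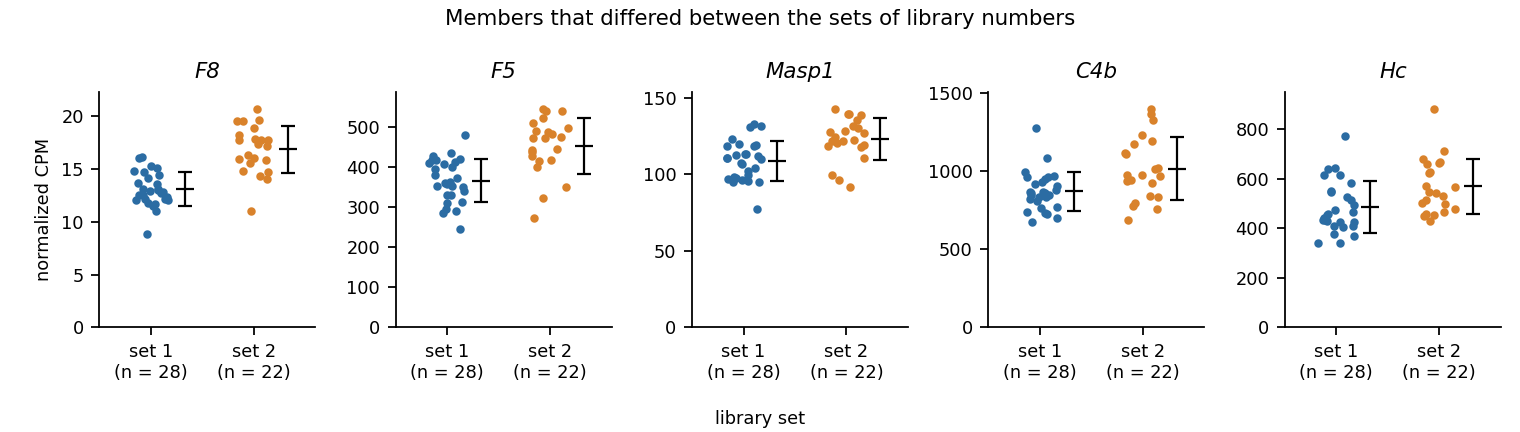
Points are libraries, with set 1 (n = 28) and set 2 (n = 22) on the x axis and normalized CPM on the y axis from 0, for the 5 members that differed. F8 separates most, with 21 of 22 libraries of set 2 above the median of set 1, and the sets overlap in every panel.

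F8 is known to come mainly from endothelial cells and F9 from hepatocytes, and both were set against an index of 12 sinusoidal endothelial markers. The pairs of these markers had a median r of 0.370 and a lowest r of -0.469, so some of them ran against each other. F8 rose with this index, with r = 0.479 and rho = 0.483 (permutation p = 0.00051 each; n = 50). Without the 2 farthest libraries r was 0.509. The relation held in set 2, with r = 0.719 (permutation p = 5e-05), but not in set 1, with r = 0.210 (permutation p = 0.280). F9 had r = 0.358 and rho = 0.315 (permutation p = 0.0109 and 0.0266), and r = 0.276 without the 2 farthest libraries, where it no longer passed (permutation p = 0.0566). Within the sets r was 0.1001 and 0.494 for F9. The difference between F8 and F9 was not tested. Other members moved with this index as well, and the relation is not particular to F8: C8g had r = -0.686 (permutation p = 1e-05), Mbl1 -0.526 (permutation p = 8e-05) and Proc -0.476 (permutation p = 0.00037), and C3 had r = 0.448 (permutation p = 0.00101) and Pros1 0.433 (permutation p = 0.00176). Between the library sets, 2 of the 12 markers, Kdr and Mrc1, were higher in set 2 and 0 were lower by limma, with 4 at an unadjusted p under 0.05. Their summed value was 375 ± 29.99 (SD, n = 28) in set 1 and 387 ± 39.0 (SD, n = 22) in set 2, with Clec4g highest, and their part in the difference of F8 was not tested. Of 9 hepatocyte markers 2 were higher in set 2 by limma and 0 lower. These were Cps1 by 0.40 (adjusted p = 0.00187) and Apob by 0.23 (adjusted p = 0.0238). Of 8 stellate markers 0 were higher and 2 lower, Des by -0.34 (adjusted p = 0.00304) and Colec11 by -0.26 (adjusted p = 0.0208). No Kupffer, cholangiocyte, leukocyte or blood cell marker passed by limma, with 3 Kupffer and 2 blood cell markers at an unadjusted p under 0.05. The part of these lists in the set differences was not tested.

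The animal number, the other number in the titles, was tested as a slope per 100 numbers. Here 8 members fell with rising number, 19.5% against 6.73% of all genes tested, and 0 rose, against 7.49% (limma with Benjamini-Hochberg adjustment; 15 members had an unadjusted p under 0.05; edgeR called 0 higher and DESeq2 1, Serpinf2). Of these 8, 5 were terminal complement genes. C8a fell by 0.40 on the log2 scale (SE 0.068, adjusted p = 0.000182), C9 by 0.59 (SE 0.113, adjusted p = 0.000528), C6 by 0.84 (SE 0.180, adjusted p = 0.00146), Klkb1 by 0.31 (SE 0.071, adjusted p = 0.00239) and C8b by 0.27 (SE 0.070, adjusted p = 0.00788). Mbl2, Hc and Proz fell as well, by 0.24, 0.25 and 0.13. The call of Proz (adjusted p = 0.0408) was lost without library 24 (adjusted p = 0.0506), without the libraries that share an animal number (adjusted p = 0.0629) and with library set as a covariate (adjusted p = 0.0567), in a range from 0.0262 to 0.508 over the alternatives; in these 3 the slope was -0.13, -0.13 and -0.12.

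The genes of the male-type index fell with the animal number too, 6 of 7 of them. With that index as a covariate 2 of the 8 members, C8a and C9, still fell, and F9 rose. Mbl2 kept the size of its slope, at -0.25 in place of -0.24, but not its call (adjusted p = 0.0569, range 0.00531 to 0.266), while the slopes of C6, Klkb1, C8b, Hc and Proz shrank to -0.22, -0.15, -0.05, -0.07 and -0.06. Of the stellate markers 3 of 8 rose with the animal number and 0 fell, and of the 6 blood cell genes 4 rose and 1 fell. Of 12 endothelial markers 2 rose and 0 fell, and of 9 hepatocyte markers 2 rose and 1 fell. Of 4 leukocyte markers 0 rose and 1 fell, and of the 15 acute-phase index genes 5 rose and 0 fell. The part of these lists was not tested. Within set 1, 4 members fell (C9, Mbl2, C8a and Klkb1), and within set 2 0 did by limma, with 10 at an unadjusted p under 0.05. Whether the slopes differ between the sets was tested by an interaction term: 0 members passed by limma, against 0.0350% of all genes, and 1, F8, had an unadjusted p under 0.05. The term was not fitted with another tool.

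Only 3 members lie on a segregating chromosome, all on chromosome 4, and 0 on chromosome 6. Masp2 (148602554 to 148615499) varied less than most genes of its level, with an SD of log2 values at percentile 6.5 of the 200 nearest genes. C8a (104815679 to 104876398) and C8b (104766317 to 104804548) lay at percentiles 80.0 and 83.5. The genes most like C8a across 50 libraries, as a description, were C9 (r = 0.878), C6 (r = 0.866) and Hc (r = 0.853), none of them on chromosome 4. Most like C8b were Ugt2b38 (r = 0.862) and Cyp7b1 (r = 0.852), both in the male-type index, and C6 (r = 0.852). Most like Masp2 were Mst1 (r = 0.599), Bag6 (r = 0.595) and Col18a1 (r = 0.594), and of its exon bases 54.9% overlap Tardbp on the other strand.

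Genes inherited together with a member would lie near it, so its squared correlation with other genes was taken by distance. For C8a the median was 0.0445 over 57 genes under 5 Mb away and 0.0494 over 10707 genes on other chromosomes. For C8b it was 0.0341 over 57 near genes and 0.0388 elsewhere. Masp2 had 0.0185 over 53 near genes and 0.0123 elsewhere. From 5 to 20 Mb away the median was higher than on other chromosomes for C8a and C8b, at 0.0563 and 0.0570, and it was 0.0118 for Masp2. After the male-type index was removed by regression, the medians for near genes and other chromosomes were 0.0247 and 0.0308 for C8a, 0.0225 and 0.0149 for C8b and 0.0261 and 0.0143 for Masp2, and from 5 to 20 Mb away they were 0.0266, 0.0174 and 0.0146. These are descriptions without a test.

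Other genes of both pathways were taken from 2 lists, with 23 tested of 30 complement genes and 30 tested of 39 coagulation genes. With the male-type index 9 of the 23 complement genes rose, 39.1% against 13.6% of all genes tested, and 2 fell, 8.70% against 12.9%. Of the 30 coagulation genes 5 rose and 4 fell, 16.7% and 13.3%, shares near those of all genes. Susd4, a membrane regulator of complement, rose by 0.68 per SD (SE 0.058, adjusted p = 9.81e-14), with values from 1.46 through 10.8 to 19.2 normalized CPM. The antitrypsin gene Serpina1e rose by 0.33 (SE 0.039, adjusted p = 4.07e-09) and the C1s protease gene C1s1 by 0.13 (SE 0.018, adjusted p = 1.90e-07). Anxa2, a plasminogen receptor on cells, fell by 0.24 (SE 0.026, adjusted p = 3.35e-10). The collectin genes Colec11, which is also in the stellate list, and Colec10 fell by 0.20 and 0.18. With the acute-phase index 4 complement and 2 coagulation genes rose, 17.4% and 6.67% against 0.700% of all genes, and 0 fell by limma, with 6 and 12 at an unadjusted p under 0.05. Among them were Hrg, a plasma protein that binds heparin and plasminogen, by 0.10 (SE 0.019, adjusted p = 0.00133), and Clu, an inhibitor of the terminal complex, by 0.10 (SE 0.023, adjusted p = 0.00843). Fgl1 is itself in the index, so its slope is built in, and the shares without it were not computed.

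Between the library sets 1 complement gene was higher in set 2 and 1 was lower, 4.35% each, and of the coagulation genes 3 were higher and 1 lower, 10% and 3.33%, against 7.07% and 6.42% of all genes. Lman1, which carries factors V and VIII out of the endoplasmic reticulum, was 0.14 higher (SE 0.036, adjusted p = 0.00768), and Pzp, a broad protease inhibitor, 0.18 higher (SE 0.053, adjusted p = 0.0166). Colec11 and Anxa2 were lower, by -0.26 and -0.23. With the animal number 2 complement genes rose and 3 fell, 8.70% and 13.04%, and 2 coagulation genes rose and 2 fell, 6.67% each, against 7.49% and 6.73% of all genes, so most of these shares are near those of all genes. Anxa2 rose by 0.29, Colec11 by 0.24 and the ficolin gene Fcna by 0.18, while Serpine2 fell by 0.41 and Serpina1e by 0.36.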

How the data were processed

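Liver RNA of N2 mice was sequenced in 50 libraries. The values are a normalized expression signal, as deposited by the authors. They trimmed adapters (Trimmomatic in the paper, Trim Galore in the submitters' notes), used HISAT2 with the GRCm38.p5 assembly, counted reads by HTSeq 0.11.1, dropped genes of low count and normalized with edgeR. The design expected normalized values with whole reads recovered, and division by the value of 1 read gave whole reads for 100% of values within 0.01.

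Members and lists were chosen with earlier results of these data known. log2(value + 0.5) was tested with limma 3.58.1 in R 4.3.3, 2-sided, for the 11436 genes whose mean was at least 1, with Benjamini-Hochberg adjustment over all of them and a threshold of 0.05. Indices are mean z scores scaled to an SD of 1. Their lists contain no member, and those of the acute-phase and male-type indices no gene of chromosomes 4 and 6. Correlations used 2-sided permutation tests. Full statistics were given to the 5 members of smallest adjusted p in each direction per test, the 5 highest and lowest in level per kilobase and in variation, members on chromosome 4, preset pairs, and at most 3 other pathway genes per direction. Other genes named with values were chosen after these were seen.

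Alternatives changed the pseudocount, the low-value filter, centring, covariates, the libraries used and the tool (edgeR 4.0.16 and DESeq2 1.42.0 on whole reads). Exons and shared 31-base stretches came from GENCODE M21, and promoters from RefSeq. The code, in R and Python 3.11.15 (scipy 1.17.1, numpy 2.4.6, pandas 2.3.3, matplotlib 3.10.9), was tested on simulated data. Linkage was left out, since the genotypes were not among the files, and 2 genes of the list of other complement genes are not reported.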

Additional observations from a re-analysis of the deposited data

How the results depend on the processing

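Of 1073 comparisons of a result with an alternative, 950 kept their direction and side of the threshold or stayed within 1.5 times of a count, 92 no longer passed, 4 newly passed, 24 counts moved further and 3 changed sign. Pseudocounts of 0.1 and 2, and no filter on low values, moved no count by over 1.5 times. The male-type or acute-phase index as a covariate, the fits and index correlations of members within each library set, and leaving out library 44 were chosen after seeing the data.

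With the male-type index as a covariate, 3 members in place of 5 were higher in set 2; with the animal number 1 rose in place of 0, 2 fell in place of 8, and 2.41% of genes in place of 14.2% passed. With library set as a covariate 1 member rose with the animal number, and 2.87% of genes in place of 0.936% passed for the acute-phase index. There 166 genes rose in place of 80 and 162 fell in place of 27, while 13 members rose in place of 9 and 0 fell. With counted reads as a covariate 7.77% of genes in place of 13.5% differed between the sets. DESeq2 called 1 member higher with the animal number, 14 in place of 9 with the acute-phase index, and 1.90% of genes there. For that index 1.69% of genes passed after centring on the median and 0.446% without the libraries sharing an animal number. The cause was not tested in any of these.

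Within set 1, which has fewer libraries, 4 members fell with the animal number (9.02% of genes passed), 1 rose with the acute-phase index (0.367%) and 12 rose with the male-type index in place of 20. Within set 2, 0 members fell with the animal number (0.131%), 0 rose with the acute-phase index (0.0874%), and 5 rose and 0 fell with the male-type index (2.30% in place of 26.5%). Beside these counts of 0 by limma, 10, 16 and 13 members had an unadjusted p under 0.05; no other tool was run within the sets.

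The r of F12 and Klkb1 was -0.0737 in set 1, 0.424 in set 2 and -0.0664 without the 2 farthest libraries, against 0.0267. That of F8 and F9 was -0.165 in set 1 and 0.336 in set 2, against 0.263. With the endothelial index r was 0.210 for F8 and 0.1001 for F9 in set 1, and 0.276 for F9 without the 2 farthest libraries. The cause was not tested. Cfb rests on the fewest reads of the members, with 15 in its lowest library. It also shares 79.5% of its exon bases with Gm20547, and the part of depth and of this overlap was not tested.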

Other observations

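The complement protease genes C1rb (chromosome 6, 124570294 to 124581171) and C1s2 (chromosome 6, 124624625 to 124636085), which are not among the 41 genes, were looked at after their values were seen. In 18 libraries C1rb was at most 0.590 and C1s2 at most 0.328 normalized CPM, and in the other 32 libraries C1rb ran from 5.88 to 13.1 and C1s2 from 4.67 to 9.17, with both genes on the same side in all 50 libraries; the low libraries were 10 of 28 in set 1 and 8 of 22 in set 2. Of the 31-base stretches of C1rb 70.0% also occur in C1ra, and of those of C1s2 40.4% in C1s1, and reads from these stretches do not tell the genes apart.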
